A study of Mus musculus with 15 samples.

Results

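The 10 genes described here, Emcn, Slco1a4, Itm2a, Tek, Mfsd2a, Ly6c1, Cldn5, Cav1, Flt1 and Kdr, are genes of brain endothelial cells and of the blood-brain barrier. They were chosen by name, with earlier results of these data known, from the 53278 gene symbols of the deposited count table. All 10 passed the filter on low counts that left 18369 genes for testing. The counts come from bulk RNA of the brain cortex of 15 male C57BL/6J mice aged 10 to 20 weeks, 1 library per mouse and 5 mice per group. Control mice ate control food. PLX3397 mice ate food with PLX3397, an oral inhibitor of the receptor kinase CSF1R, for 9 days, and repopulation mice had the same 9 days of inhibitor followed by 9 days back on control food. All mice shared one strain and sex, no transgene is named, and PLX3397 reaches the whole body and is also known to inhibit KIT and FLT3. The title of the series names microglia, cerebrovascular reactivity and the ectonucleotidase CD39, and the vessel genes bear on the vessel side of that question.

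Endothelial cells line the vessels of the brain and form the blood-brain barrier. Their claudin-rich tight junctions close the gaps between cells, their transporters carry selected nutrients, hormones and lipids, and caveolae, the flask-shaped pits that carry cargo across the cell, are kept scarce. The receptors for VEGF and for the angiopoietins control the growth and quiescence of these cells. Wnt ligands from neurons and glia maintain the barrier programme through Fzd4 and its partners, and transcription factors of the ETS family act at many endothelial genes.

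The promoters of 4 genes are shown because they belong to the genes on which the results below turn: Emcn, with the deepest fall on PLX3397, Kdr and Flt1, the VEGF receptor genes, and Cldn5, the tight junction gene. Each is the stretch of 250 bases before the RefSeq start on GRCm38.p6, written 5′ to 3′ on the strand of the gene, with capitals for the ETS cores on either strand, which were searched as CCGGAA (found in 12% of all RefSeq windows of this length), as ACAGGAA (found in 7.2%) and as GGAAGT (found in 19.7%).
Emcn (chr3:137340828-137341077, + strand): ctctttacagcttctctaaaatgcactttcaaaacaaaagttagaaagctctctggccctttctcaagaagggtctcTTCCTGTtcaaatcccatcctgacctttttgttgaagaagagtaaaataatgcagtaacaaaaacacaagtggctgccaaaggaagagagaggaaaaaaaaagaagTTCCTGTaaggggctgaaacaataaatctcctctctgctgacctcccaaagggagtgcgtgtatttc
Kdr (chr5:75978456-75978705, - strand): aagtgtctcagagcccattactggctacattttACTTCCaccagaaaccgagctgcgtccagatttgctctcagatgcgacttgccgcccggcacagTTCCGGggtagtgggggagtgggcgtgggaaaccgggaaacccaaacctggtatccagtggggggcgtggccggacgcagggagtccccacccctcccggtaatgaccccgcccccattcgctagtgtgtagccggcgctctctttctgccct
Flt1 (chr5:147726012-147726261, - strand): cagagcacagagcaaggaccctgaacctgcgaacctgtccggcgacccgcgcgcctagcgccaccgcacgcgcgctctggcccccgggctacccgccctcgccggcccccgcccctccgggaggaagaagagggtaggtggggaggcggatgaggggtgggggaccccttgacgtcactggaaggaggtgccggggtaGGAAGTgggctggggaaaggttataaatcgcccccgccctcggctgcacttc
Cldn5 (chr16:18776597-18776846, + strand): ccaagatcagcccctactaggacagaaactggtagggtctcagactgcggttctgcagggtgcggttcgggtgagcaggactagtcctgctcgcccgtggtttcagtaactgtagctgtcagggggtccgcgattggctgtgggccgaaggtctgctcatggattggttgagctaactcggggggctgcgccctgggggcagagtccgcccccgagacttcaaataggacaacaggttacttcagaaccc

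The Emcn stretch held 2 ETS cores, the Kdr stretch 2, the Flt1 stretch 1 and the Cldn5 stretch 0. Over the 10 genes (12 RefSeq windows, 2 each for Ly6c1 and Cav1), 4 genes had at least 1 ETS core, namely Emcn, Ly6c1, Flt1 and Kdr, and 31.7% of all 32851 RefSeq windows of the same length had one. The first and last of these cores can overlap each other. The other letters searched, on both strands, were the forkhead string GTAAACA (0 of the 10 genes, 3.2% of all windows), the TCF/LEF string CTTTGA (1 gene, Mfsd2a, and 13.8%), the SOX string ACAAT (3 genes, Emcn, Slco1a4 and Tek, and 27.7%), the KLF string GGGTG (7 genes and 52.0%) and TATAAA (3 genes, Ly6c1, Cav1 and Flt1, and 12.4%). The windows also differed in base composition, from 39.2% GC for Slco1a4 and 40.8% for Emcn to 70.4% for Flt1, with a median of 52.4% over all windows. The Flt1 stretch held 23 CpG pairs, the Kdr stretch 16 and the Slco1a4 stretch 0. These matches describe the letters only.

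All 10 are annotated as protein-coding on GRCm38 in GENCODE release M21. Flt1 lies on chromosome 5 from 147561604 to 147726011 and Kdr on the same chromosome from 75932827 to 75978458. Tek lies on chromosome 4 from 94739289 to 94874976 and Mfsd2a from 122946850 to 122961188. Cav1 lies on chromosome 6 from 17306335 to 17341452 and Slco1a4 from 141805440 to 141856199. Emcn lies on chromosome 3 from 137341067 to 137432185, Ly6c1 on chromosome 15 from 75044018 to 75048830, Cldn5 on chromosome 16 from 18776847 to 18778262 and Itm2a on chromosome X from 107397099 to 107403376. Cldn5 is annotated with 1 exon and Flt1 with 33 merged exons. The summed exon length ran from 1416 bp for Cldn5 to 13504 bp for Flt1. No exon of the 10 overlaps an exon of another gene. Of all stretches of 50 bases in the Ly6c1 transcripts, 32.8% also occur in other genes, above all in Ly6c2 and Ly6a, so Ly6c1 counts are uncertain. The share was 1.61% for Slco1a4, 0.112% for Flt1 and 0 for the other 7.

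Total counts per library ran from 23413551 to 48617851, and the members had between 84 and 4004 counts per library. Csf1r, the target of PLX3397, was at 84.9 CPM (counts scaled to library size with TMM factors) in control, 0.215 on PLX3397 and 105 after repopulation. Tmem119, a microglial membrane protein gene, was at 19.1, 1.10 and 19.5 CPM. The 12 listed microglial genes had summed levels between 348 and 384 CPM (control), 26.8 and 31.8 CPM (PLX3397) and 379 and 427 CPM (repopulation). The 15 further pan-endothelial markers, among them Pecam1, Cdh5 and Tie1, were all detected in every group, with sums of 234 to 249, 198 to 239 and 231 to 250 CPM. Repopulation mouse 4 stood apart in choroid plexus genes (1161 CPM over 8 genes, against 268 to 289 in the other repopulation libraries, 237 to 287 in controls and 287 to 571 with PLX3397).

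Levels of different genes were compared per kilobase of exon. In control cortex Cldn5 was highest at 17.5 ± 1.73 CPM per kb (SD, n = 5), followed by Itm2a at 15.7 ± 1.66 and Ly6c1 at 12.96 ± 1.68. The libraries of neighbours in this order overlapped. Mfsd2a at 7.92 ± 0.991 and Slco1a4 at 7.06 ± 0.756 overlapped each other and lay below all Ly6c1 values. Flt1 followed at 5.75 ± 0.396 CPM per kb, below every Slco1a4 value. Cav1 at 3.57 ± 0.236 and Tek at 3.34 ± 0.17 overlapped each other, and Kdr at 1.51 ± 0.274 and Emcn at 1.03 ± 0.0952 were lowest. After repopulation Slco1a4 (8.60 ± 0.395 CPM per kb) lay above every Mfsd2a value (6.89 ± 0.687), while these carriers overlapped in control.

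**Figure D1:**
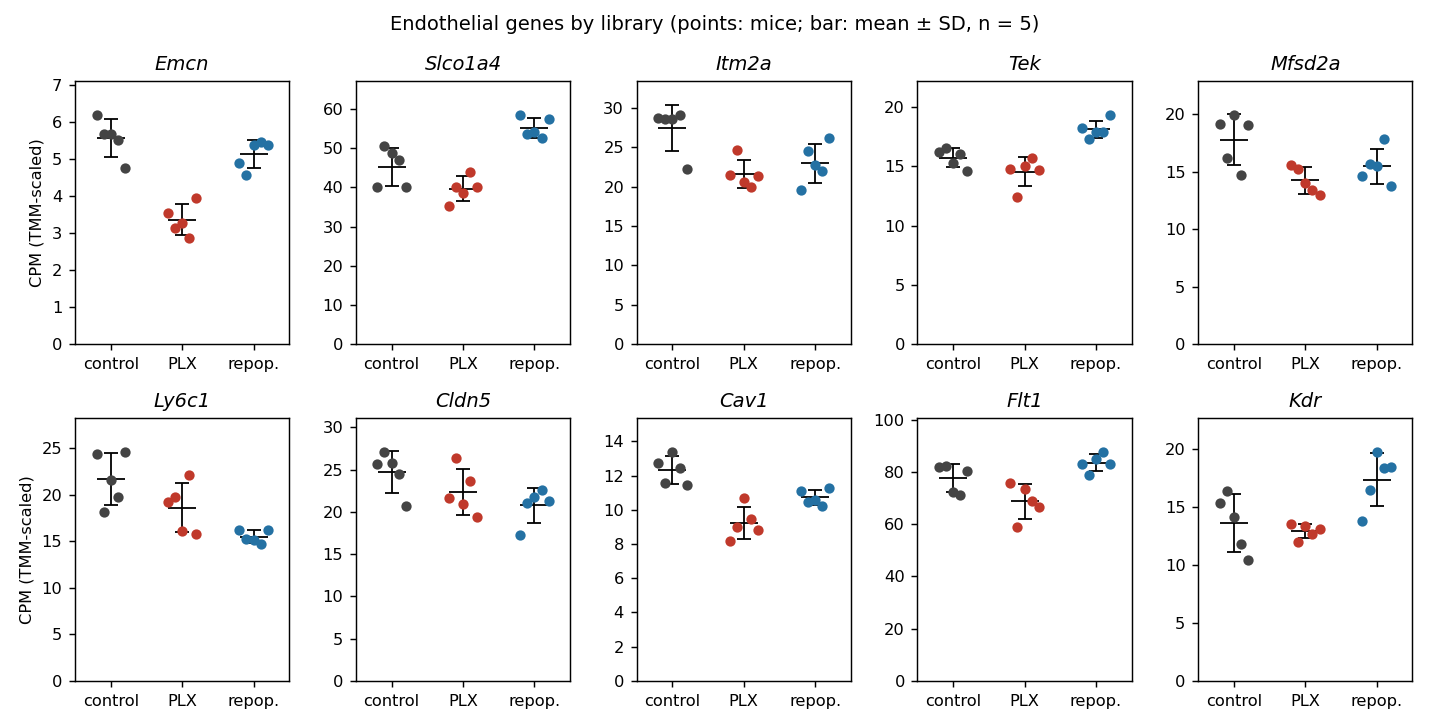
CPM of each gene (vertical axis, from 0) in the 15 libraries, by group on the horizontal axis. Points are mice and bars give the mean and SD of 5. On PLX3397 Emcn and Cav1 lie below all controls, and after repopulation Slco1a4 and Tek lie above all controls while Ly6c1 and Cav1 lie below them.

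On PLX3397, 6 of the 10 genes fell relative to control and 0 rose, in the quasi-likelihood fit of edgeR (Benjamini-Hochberg adjusted p over all tested genes). Over all 18369 genes, 8.35% were lower and 8.19% higher. Since the members were chosen with earlier results of these data known, their counts and these shares are not an independent comparison. The libraries of both groups did not overlap for 2 members, Emcn and Cav1, both lower, and for 0 members in the higher direction, where 5.38% and 4.99% of all tested genes did so. The fitted change was below 0 for each of the 10, with a median log2 fold change of -0.21 against -0.002 over all tested genes. Emcn fell to 60.3% of the control mean and Cav1 to 74.9%, Itm2a to 78.8% and Mfsd2a to 80.1%, while Slco1a4 and Flt1 fell to 87.6% and 88.6%. In bulk RNA, fewer endothelial cells and less RNA per cell cannot be told apart. Microglial genes moved with the group in the same comparison, and their part in these values was not tested.

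Emcn encodes endomucin, a sialomucin of the capillary and venous endothelial surface. It was at 6.19, 5.69, 5.69, 5.51 and 4.76 CPM in the control mice, at 3.56, 3.14, 3.27, 2.87 and 3.96 CPM on PLX3397 and at 4.89, 4.58, 5.38, 5.47 and 5.40 CPM after repopulation. Every PLX3397 library lay below every library of the other groups, and the control and repopulation libraries overlapped. On PLX3397 it fell by 0.74 on the log2 scale against control (SE 0.11, adjusted p = 1.49e-05), with a change of 0.62 (SE 0.11, adjusted p = 0.000183) after repopulation against PLX3397. Repopulation against control gave -0.12 (95% interval -0.33 to 0.08, adjusted p = 0.393), which did not pass the test.

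Itm2a, which encodes an integral membrane protein found in brain endothelium, was at 28.7, 28.6, 28.6, 29.0 and 22.2 CPM in control, at 21.5, 24.6, 20.6, 19.9 and 21.4 CPM on PLX3397 and at 19.6, 24.5, 22.8, 21.9 and 26.1 CPM after repopulation. The first 4 control mice lay above all other libraries, while control mouse 5 lay within the range of the treated groups. Itm2a fell on PLX3397 (log2 fold change -0.35, SE 0.08, adjusted p = 0.00447) and was lower than control after repopulation (-0.26, SE 0.08, adjusted p = 0.0171). From PLX3397 to repopulation it changed by 0.09 (95% interval -0.08 to 0.26, adjusted p = 0.524), which did not pass the test.

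Ly6c1, a GPI-anchored surface protein gene of endothelial cells and some leukocytes, was at 24.4, 18.2, 21.6, 19.8 and 24.6 CPM in control, at 19.2, 19.8, 16.1, 22.1 and 15.8 CPM on PLX3397 and at 16.2, 15.3, 15.2, 14.7 and 16.3 CPM after repopulation. All repopulation libraries lay below all controls, and the PLX3397 libraries overlapped both groups. It was lower after repopulation than in control (log2 fold change -0.49, SE 0.09, adjusted p = 0.000371). PLX3397 against control gave -0.22 (adjusted p = 0.0977) and repopulation against PLX3397 -0.27 (adjusted p = 0.0536), and neither passed. The first passed without control mouse 2 or PLX3397 mouse 4 (lowest adjusted p = 0.0239) and without the filter on low counts (0.00799). The second passed without control mouse 1, 2 or 5 or PLX3397 mouse 3 or 5 (lowest 0.0146) and without that filter (0.00109).

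Slco1a4 encodes an organic anion transporter of the barrier, which carries bile acids, steroid conjugates and drugs. It was at 40.1, 50.5, 48.7, 46.9 and 40.2 CPM in control, at 35.3, 40.2, 38.5, 44.0 and 40.1 CPM on PLX3397 and at 58.3, 53.5, 54.1, 52.5 and 57.3 CPM after repopulation. Every repopulation library lay above every other library, and control and PLX3397 libraries overlapped. It was higher after repopulation than on PLX3397 (log2 fold change 0.48, SE 0.06, adjusted p = 1.23e-05) and than in control (0.29, SE 0.06, adjusted p = 0.00154). The fall on PLX3397 (-0.19, SE 0.07, adjusted p = 0.0467) lay near the threshold and was lost without any 1 of 12 libraries (adjusted p up to 0.129), that is, any except control mice 1 and 5 and PLX3397 mouse 4. With trends of exon length and GC content taken out, the rise over control was 0.17 (adjusted p = 0.0635).

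Mfsd2a encodes the carrier that brings docosahexaenoic acid into the brain and restrains transport by vesicles in barrier endothelium. It was at 19.1, 16.2, 19.9, 14.7 and 19.1 CPM in control, at 15.6, 15.2, 14.04, 13.4 and 12.9 CPM on PLX3397 and at 14.6, 15.7, 15.5, 17.9 and 13.8 CPM after repopulation. The 3 groups overlapped, with 4 controls above every PLX3397 library. It fell on PLX3397 (log2 fold change -0.32, SE 0.08, adjusted p = 0.00766). Repopulation gave 0.12 against PLX3397 (adjusted p = 0.383) and -0.21 against control (95% interval -0.37 to -0.04, adjusted p = 0.0594), neither past the threshold. The second passed without control mouse 2 or 4 or repopulation mouse 4 (lowest adjusted p = 0.0115) and without the filter on low counts (0.0168), and was -0.11 (adjusted p = 0.348) after removal of length and GC trends.

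Slco1a4 and Mfsd2a can be compared within each library without scaling to library size. The ratio of Slco1a4 counts to Mfsd2a counts was 2.10, 3.11, 2.45, 3.19 and 2.11 in control, 2.26, 2.64, 2.74, 3.27 and 3.10 on PLX3397 and 4.00, 3.41, 3.49, 2.93 and 4.16 after repopulation. The ratio in 4 of 5 repopulation libraries lay above all others. This ratio was chosen after the values were seen and was not tested. Trends of exon length and GC content were not taken out of it, and the genes differ in both. Slco1a4 has 6414 bp of exon at 40.2% GC, and Mfsd2a 2250 bp at 55.0% GC.

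Cldn5, the claudin that seals endothelial tight junctions, was at 25.7, 27.1, 25.8, 24.5 and 20.7 CPM in control, at 21.6, 26.4, 20.9, 23.7 and 19.4 CPM on PLX3397 and at 17.3, 21.03, 21.8, 22.6 and 21.3 CPM after repopulation. In 4 controls Cldn5 lay above all repopulation libraries, and the PLX3397 libraries spread over both. PLX3397 against control gave -0.15 (95% interval -0.32 to 0.03, adjusted p = 0.272), which did not pass. After repopulation Cldn5 was lower than in control (-0.26, SE 0.09, adjusted p = 0.0286). That call was lost without control mouse 1, 2 or 3 or repopulation mouse 1 (adjusted p up to 0.0742) and with length and GC trends taken out (-0.12, adjusted p = 0.282).

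Cav1 encodes caveolin-1, the coat protein of caveolae, which smooth muscle and pericytes also express. It was at 12.7, 11.6, 13.4, 12.4 and 11.46 CPM in control, at 8.19, 8.99, 10.7, 9.46 and 8.82 CPM on PLX3397 and at 11.1, 10.5, 10.6, 10.2 and 11.3 CPM after repopulation. All controls lay above both other groups, while 1 PLX3397 library reached into the repopulation range. Cav1 fell on PLX3397 (log2 fold change -0.42, SE 0.07, adjusted p = 0.000259). Repopulation lay between, higher than PLX3397 (0.22, SE 0.08, adjusted p = 0.047) and lower than control (-0.20, SE 0.07, adjusted p = 0.0404). Both intermediate calls lay near the threshold. The first was lost without any 1 of 12 libraries, all except control mice 2 and 5 and PLX3397 mouse 3 (adjusted p up to 0.133), and with the mouse number as a replicate block (0.0538). Without the filter on low counts (0.0819) and with only the 2 groups compared (0.0602) it was lost as well. The second was lost without control mouse 1, 3 or 4 or repopulation mouse 2, 3 or 4 (adjusted p up to 0.101) and with the block (0.0517). With upper quartile factors (0.0622) and without that filter (0.0629) it was lost as well.

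Flt1 encodes VEGF receptor 1, which binds VEGF-A tightly and in its soluble form acts as a decoy. It was at 82.0, 82.2, 72.4, 71.3 and 80.2 CPM in control, at 75.7, 58.7, 73.6, 69.0 and 66.6 CPM on PLX3397 and at 83.1, 79.0, 85.0, 87.6 and 83.1 CPM after repopulation. All repopulation libraries lay above all PLX3397 libraries, and control overlapped both. Flt1 was higher after repopulation than on PLX3397 (log2 fold change 0.28, SE 0.06, adjusted p = 0.00138), and repopulation against control gave 0.11 (95% interval -0.01 to 0.22, adjusted p = 0.176), a direction that turned to -0.04 (adjusted p = 0.668) after removal of length and GC trends. Its fall on PLX3397 (-0.18, SE 0.06, adjusted p = 0.0364) was lost without control mouse 1, 2 or 5 or PLX3397 mouse 2, 4 or 5 (adjusted p up to 0.0977). That fall was also lost with only the 2 groups compared (adjusted p = 0.0783).

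Kdr encodes VEGF receptor 2, the main signalling receptor for VEGF-A on endothelium. It was at 15.4, 16.4, 14.1, 11.8 and 10.4 CPM in control, at 13.6, 11.99, 13.3, 12.7 and 13.1 CPM on PLX3397 and at 13.8, 16.4, 19.7, 18.3 and 18.4 CPM after repopulation. The controls spread most widely, with a coefficient of variation of 18.2% against 4.82% on PLX3397, and held the PLX3397 libraries within their range. Kdr was higher after repopulation than on PLX3397 (log2 fold change 0.42, SE 0.11, adjusted p = 0.0112), with no overlap. The rise over control (0.34, SE 0.11, adjusted p = 0.0232) was lost without control mouse 4 or repopulation mouse 3, 4 or 5 (adjusted p up to 0.0675), with the replicate block (0.0507) and with length and GC trends taken out (0.23, adjusted p = 0.128). That rise was also lost with only the 2 groups compared (adjusted p = 0.079). PLX3397 against control gave -0.09 (95% interval -0.32 to 0.14, adjusted p = 0.66).

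Tek encodes TIE2, the angiopoietin receptor of quiescent vessels. It was at 16.2, 16.6, 15.3, 16.1 and 14.6 CPM in control, at 14.8, 12.4, 15.1, 15.7 and 14.7 CPM on PLX3397 and at 18.2, 17.3, 17.9, 17.9 and 19.3 CPM after repopulation. Every repopulation library lay above every other library. Tek was higher after repopulation than on PLX3397 (log2 fold change 0.32, SE 0.06, adjusted p = 0.000755) and than in control (0.20, SE 0.06, adjusted p = 0.0143). PLX3397 against control gave -0.12 (95% interval -0.24 to 0.01, adjusted p = 0.229).

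The ratio of Kdr counts to Cldn5 counts, also chosen after the values were seen and not tested, set the repopulation libraries apart. It was 0.598, 0.605, 0.547, 0.482 and 0.505 in control, 0.628, 0.454, 0.637, 0.535 and 0.678 on PLX3397 and 0.797, 0.782, 0.906, 0.810 and 0.867 after repopulation. No repopulation library overlapped another group. The genes differ in exon length (9030 bp for Kdr and 1416 bp for Cldn5), and trends of length and GC content were not taken out of the ratio. With those trends taken out, neither gene was called after repopulation against control (Kdr 0.23, adjusted p = 0.128, Cldn5 -0.12, adjusted p = 0.282). Kdr kept its rise over PLX3397 (0.37, adjusted p = 0.0242).

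From PLX3397 to repopulation, 6 of the 10 genes rose and 0 fell, where 7.61% of all tested genes were higher and 8.98% lower. The 6 were Emcn, Slco1a4, Kdr, Tek, Flt1 and Cav1, with log2 fold changes of 0.22 to 0.62. The 5 other than Cav1 had no overlap between the groups, which 5.57% of all tested genes showed in that direction and 6.24% in the lower direction, where 0 members did. Against control, 3 of the 10 were higher after repopulation (Slco1a4, Tek and Kdr) and 4 lower (Ly6c1, Itm2a, Cldn5 and Cav1), where 13.9% and 15.2% of all tested genes were higher and lower (29.1% in either direction). The libraries did not overlap for 4 of the 10, Slco1a4 and Tek higher and Ly6c1 and Cav1 lower, against 22.3% of all tested genes (10.5% higher and 11.8% lower). The median over the 10 was 0.25 against PLX3397 and -0.16 against control. These comparisons share their groups pairwise, so their values are not independent.

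**Figure D2:**
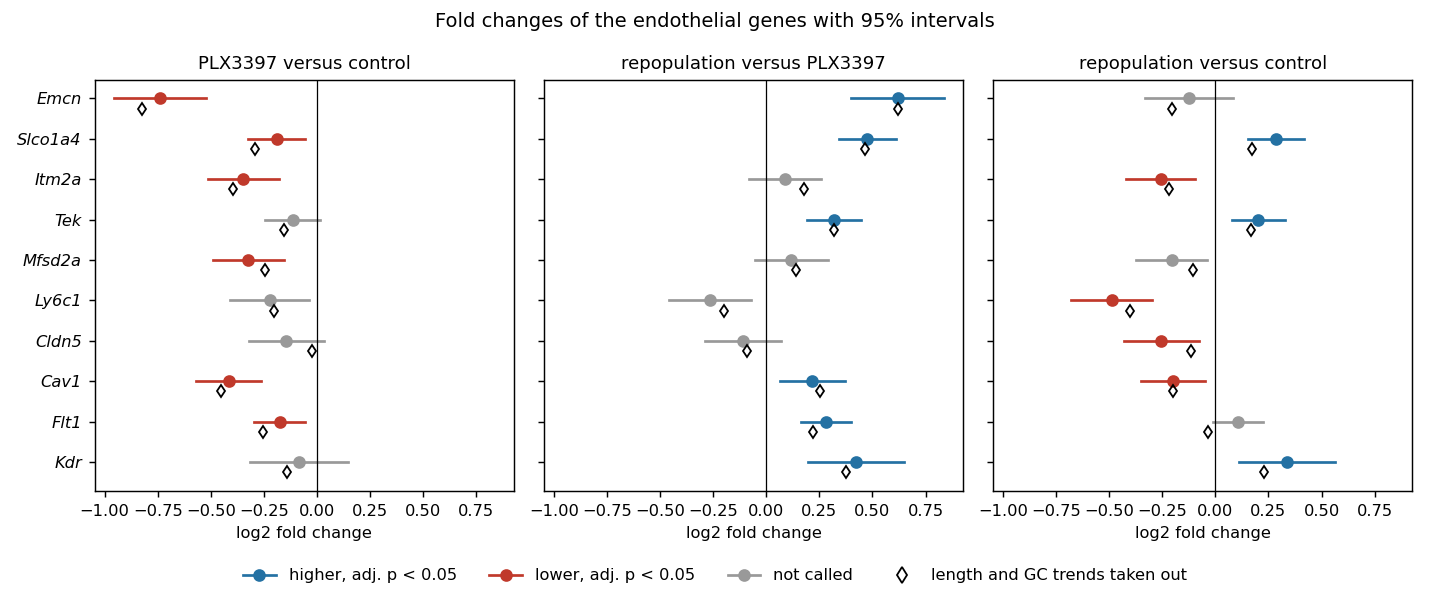
Log2 fold changes (horizontal axis) of the 10 genes in the 3 comparisons, with 95% intervals as lines and colour for calls at adjusted p under 0.05. Diamonds are values with length and GC trends taken out. All points lie below 0 on PLX3397, 6 genes rise on repopulation, and against control 3 genes are higher and 4 lower.

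Among the called genes, exon length went along with direction against control after repopulation. The 3 genes that were higher after repopulation had 4712 to 9030 bp of exon, and 3 of the 4 lower genes had 1416 to 1744 bp, with Cav1 at 3444 bp. Not called were Flt1 (13504 bp, log2 fold change 0.11), Emcn (5409 bp, -0.12) and Mfsd2a (2250 bp, -0.21). The same trend ran through all tested genes. In the longest of 5 equal classes of genes (7033 bp and more) the median log2 fold change of repopulation against control was 0.11, with 38.4% of genes higher and 4.90% lower. In the shortest class (up to 2036 bp) it was -0.09, with 3.59% higher and 21% lower. The middle class, which holds Tek and Cav1, had a median of -0.02, with 7.92% higher and 18.1% lower. On PLX3397 against control the medians of the longest and shortest classes were 0.06 and -0.05. After removal of length and GC trends, 1 of the 10 genes was higher than control after repopulation (Tek, 0.17, adjusted p = 0.0488) and 3 were lower, namely Ly6c1 (-0.40, adjusted p = 0.00208), Itm2a (-0.22, adjusted p = 0.0429) and Cav1 (-0.20, adjusted p = 0.0416). The PLX3397 comparison still had 6 lower genes, with Emcn at -0.82 (adjusted p = 4.8e-06) and Cldn5 at -0.02 (adjusted p = 0.887). Repopulation against PLX3397 still had 6 higher genes. Other member values that moved by over 1.5 times were Slco1a4 (-0.29) and Kdr (-0.14) on PLX3397, Itm2a from PLX3397 to repopulation (0.18) and Emcn after repopulation against control (-0.20).

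**Figure D3:**
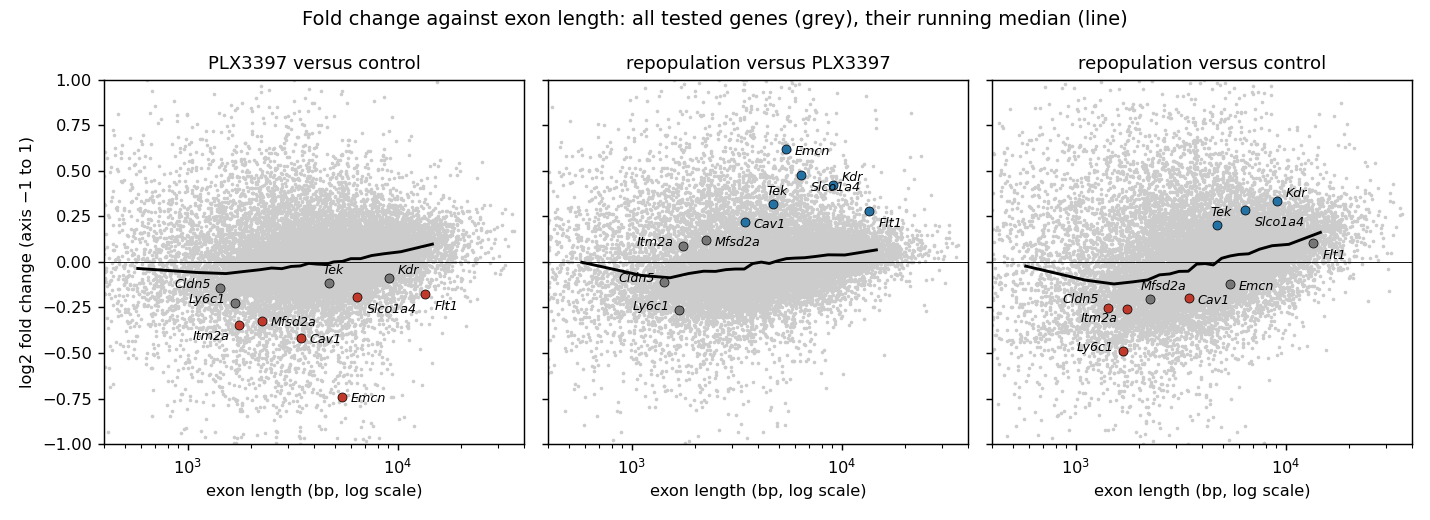
Log2 fold change (vertical axis, shown from -1 to 1, which leaves out larger changes) against summed exon length (log axis) in the 3 comparisons. Grey points are all tested genes with a length, the line is their running median, and the 10 genes are coloured by call (blue higher, red lower, dark grey not called). In 5 equal classes of length, which are wider than the bins of the line, the median after repopulation against control was -0.09 in the shortest and 0.11 in the longest.

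Other vessel genes were read from lists given by role, and the 10 genes were left out of the counts. The lists share genes, and a shared gene is counted in each list that holds it, so their counts are not independent. The falls of Tie1, Eng and Pecam1 on PLX3397, for example, count among the pan-endothelial markers. Tie1 counts again among the VEGF and angiopoietin genes, Pecam1 among the junction genes, and Eng among the surface and the Notch and BMP genes. Over all tested genes, 8.19% were higher and 8.35% lower on PLX3397, and 7.61% and 8.98% from PLX3397 to repopulation. Against control after repopulation the shares were 13.9% and 15.2%. A list with counts near these shares is not set apart from all tested genes. Of the 15 pan-endothelial markers, 4 fell and 0 rose on PLX3397 (median log2 fold change -0.16). From PLX3397 to repopulation, 7 rose and 0 fell, and against control 0 rose and 0 fell after repopulation (median 0.02). After removal of length and GC trends the counts were 2 lower, 5 higher and 0. Tie1, a partner of TIE2, fell from 12.9 ± 0.731 to 10.4 ± 0.762 CPM (SD, n = 5 each, adjusted p = 0.00173), and the cadherin gene Cdh5 rose from 14.2 ± 2.08 on PLX3397 to 18.2 ± 0.756 CPM after repopulation (adjusted p = 0.00174). Cdh5 was chosen after its values were seen.

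Among 14 other genes of the VEGF, angiopoietin and apelin ligands and receptors, 1 fell on PLX3397 (Tie1) and 0 rose. After repopulation 2 rose and 2 fell against PLX3397, and 1 rose and 2 fell against control. Ptprb, the endothelial phosphatase that acts on TIE2, was at 62.9 ± 2.38 CPM after repopulation and 50.9 ± 3.31 in control (log2 fold change 0.31, adjusted p = 0.00489, and 0.17 with adjusted p = 0.0969 without length and GC trends). The ligand genes Vegfb (-0.17, adjusted p = 0.00504) and Apln (-0.51, adjusted p = 0.0188) were lower. The Vegfb call was lost without length and GC trends (adjusted p = 0.553), and the Apln call without control mouse 1 (0.0523).

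Of 13 other junction genes, 1 rose and 3 fell on PLX3397, 5 rose and 1 fell from PLX3397 to repopulation, and 4 rose and 1 fell against control. F11r, a junctional adhesion molecule that leukocytes also carry, fell from 6.32 ± 0.458 to 2.85 ± 0.589 CPM (-1.14, adjusted p = 4.22e-08). Tjp1, a scaffold gene of tight junctions, was higher than control after repopulation (0.21, adjusted p = 0.000469), and Jam3 was lower (-0.26, adjusted p = 0.00301). Cldn5 was lower in that comparison, and many cells other than endothelium express Tjp1.

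Of 19 other transporters and carriers, 1 rose and 3 fell on PLX3397, and 8 rose and 2 fell from PLX3397 to repopulation. Over all 21 genes of that list, members included, the latter counts were 9 and 2, and 6 and 1 without length and GC trends. Against control, 2 rose and 3 fell. The P-glycoprotein gene Abcb1a was at 42.3 ± 1.07 CPM after repopulation and 35.3 ± 2.41 in control (0.26, adjusted p = 0.006), and the amino acid carrier gene Slc38a5 was lower (-0.68, adjusted p = 0.0017). Tfrc, the transferrin receptor, rose on PLX3397 from 115 ± 14 to 143 ± 10.5 CPM (0.31, adjusted p = 0.0062, and 0.075 without length and GC trends). The fall of Slco2b1 from 18.7 to 4.96 CPM (-1.91, adjusted p = 6.32e-15) concerns a gene that microglia also express.

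Of 7 other caveolar genes, 0 were called on PLX3397, where Cav1 fell. From PLX3397 to repopulation 0 rose and 1 fell, Cavin3 (-0.26, adjusted p = 0.0231), while Cav1 rose with a call near the threshold. The Cavin3 call in that comparison was lost without PLX3397 mouse 3 or 4 or repopulation mouse 1 or 5 (adjusted p up to 0.0671). After repopulation 2 were lower than control, Cavin3 (-0.42, adjusted p = 0.000216) and Cavin1 (-0.18, adjusted p = 0.0294), both parts of the caveolar coat. The Cavin1 call was lost without length and GC trends (adjusted p = 0.147) and without control mouse 3 or repopulation mouse 1, 3 or 5 (adjusted p up to 0.0855). Of 14 other surface genes, 1 rose and 3 fell on PLX3397, 4 rose and 2 fell from PLX3397 to repopulation, and 1 rose and 3 fell against control. Cd93, a lectin-like surface protein gene, went down from 8.74 ± 1.17 to 6.35 ± 0.772 CPM (adjusted p = 0.00279), the sphingosine phosphate receptor gene S1pr1 by 0.17 on the log2 scale (adjusted p = 0.0012), and Mcam rose by 0.40 (adjusted p = 0.00169). After repopulation Ly6a, a close relative of Ly6c1, was at 12.1 ± 0.564 against 16.2 ± 2.65 CPM in control (-0.41, adjusted p = 0.00199), and the adhesion receptor gene Adgrf5 was higher (0.33, adjusted p = 7.44e-05).

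Of 19 endothelial transcription factor genes, 8 fell and 0 rose on PLX3397 (median -0.24), 10 rose and 0 fell from PLX3397 to repopulation (median 0.34), and 2 rose and 1 fell against control. Ets1 fell from 13.5 ± 0.69 to 8.33 ± 0.818 CPM (-0.69, adjusted p = 4.47e-07) and was at 13.6 CPM after repopulation. Fli1, a further ETS factor gene that microglia also express, fell from 3.79 ± 0.382 to 1.87 ± 0.396 CPM (-1.004, adjusted p = 5.36e-05). The hypoxia factor gene Epas1 fell by 0.16 on the log2 scale (adjusted p = 0.00225), and Klf4 was lower than control after repopulation (-0.46, adjusted p = 0.000916). Without length and GC trends the counts were 4 lower on PLX3397 and 7 higher after it. All 12 listed microglial genes also fell on PLX3397 and rose after it, and the part of microglia in these counts was not tested.

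Of 15 genes of Wnt and norrin barrier signalling, 2 fell on PLX3397 and 6 rose with 0 lower from PLX3397 to repopulation, while 3 rose and 1 fell against control. Without length and GC trends these were 1 lower, 3 higher, and 1 higher with 1 lower. Apcdd1, a Wnt-induced gene of barrier endothelium, was at 26.8 ± 1.63 CPM after repopulation, 19.6 on PLX3397 and 20.5 ± 2.06 in control (0.39 against control, adjusted p = 5.42e-05). Of 7 tested activation genes, 3 fell on PLX3397, namely the adhesion molecule genes Icam1 (3.29 to 1.32 CPM, adjusted p = 5.2e-05) and Vcam1 (-0.29, adjusted p = 0.00322) and the chemokine receptor gene Ackr1 (-0.27, adjusted p = 0.000438). Repopulation against PLX3397 had 1 higher and 0 lower. After repopulation 4 were lower than control and 0 higher, namely Lrg1 (-0.70, adjusted p = 0.00163), Ackr1, Icam1 and Lcn2, which was named after its values were seen (0.153 ± 0.0804 CPM, and 2.60 ± 3.73 in control, adjusted p = 0.0319). The Icam1 call in that comparison (adjusted p = 0.0103) was lost without control mouse 1 (0.0688), and the Ackr1 call (0.00681) without length and GC trends (0.242). Icam1 is expressed by many cell types, microglia among them. Notch and BMP genes had 2 higher and 1 lower of 14 on PLX3397, 3 and 0 from PLX3397 to repopulation, and 3 and 1 against control after it. Without length and GC trends these were 0 and 0, 2 and 0, and 1 and 0. Jag1, a Notch ligand, was higher in the latter (0.41, adjusted p = 0.00347).

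By vessel segment, 2 of 10 arterial genes, 3 of 10 venous genes and 1 of 7 other capillary genes fell on PLX3397, with 0, 0 and 1 higher. After repopulation the counts of higher and lower genes against control were 1 and 2 for arterial, 0 and 5 for venous and 2 and 1 for capillary genes. They were 1 and 0, 1 and 1, and 0 and 1 from PLX3397 to repopulation. The venous list shares Icam1, Vcam1, Ackr1 and others with the activation list. Rgcc, a capillary gene that regulates the cell cycle, was at 10.2 ± 0.61 CPM in control, 7.13 ± 0.823 on PLX3397 (-0.51, adjusted p = 0.000113) and 7.28 ± 0.581 after repopulation (-0.49, adjusted p = 0.000111). Without length and GC trends no arterial gene was called in either comparison with control, and 3 and 5 venous genes were lower. In the repopulation comparison these 5 were partly other genes, since Ackr1 lost its call and Vcam1 gained one (-0.24, adjusted p = 0.0133, against -0.11 and 0.249 with the trends left in). The 2 capillary genes higher than control after repopulation were Tfrc (0.279, adjusted p = 0.00712) and Spock2 (0.125, adjusted p = 0.00368). The Tfrc call was lost without length and GC trends (adjusted p = 0.115). Over all 10 capillary genes, members included, 3 were higher and 2 lower in that comparison, and 1 and 3 without these trends. Spock2 alone was at 920 CPM in control, where the 15 pan-endothelial markers summed to 234 to 249 CPM. The cells behind these counts were not resolved in bulk cortex. Differences between segments were not tested.

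**Figure D4:**
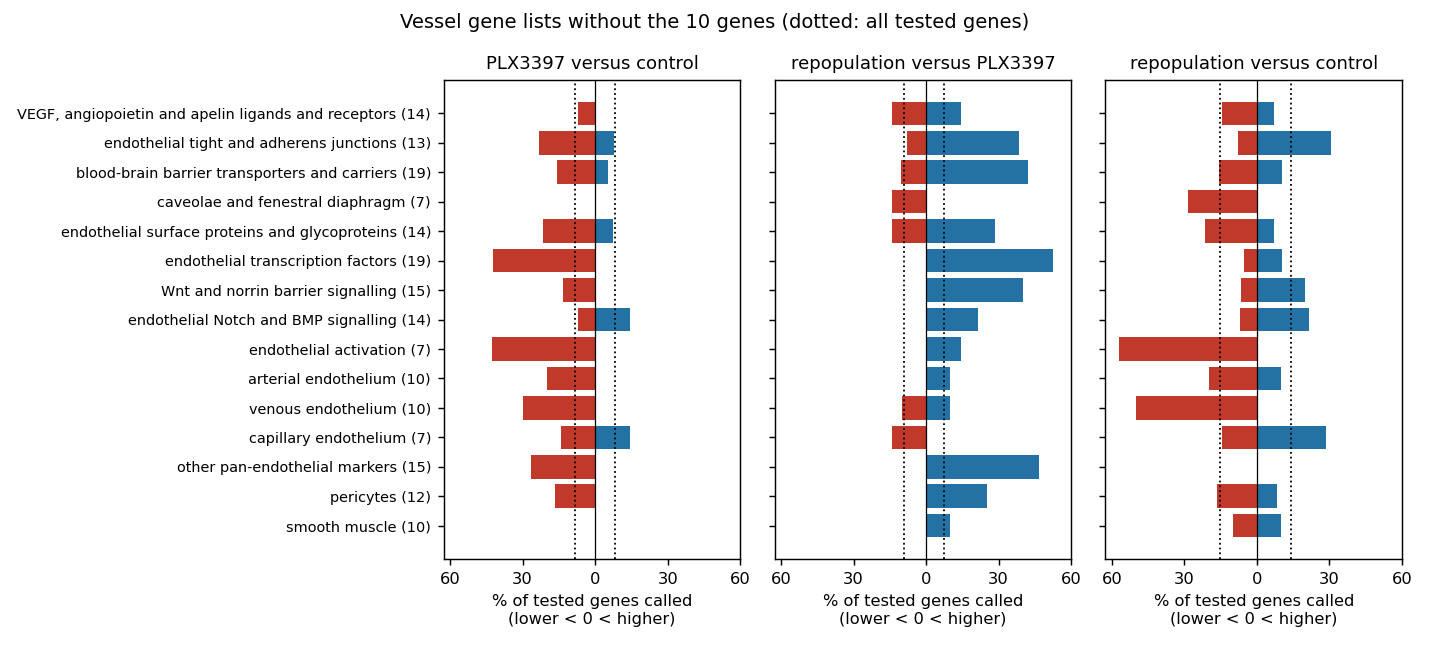
Share of tested genes called (horizontal axis, percent; red to the left for lower, blue to the right for higher) in each vessel list without the 10 genes, with the number of genes in brackets. Dotted lines give the share over all tested genes. Among 19 transcription factor genes, 8 were lower on PLX3397 and 10 higher from PLX3397 to repopulation.

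The members did not vary as 1 block. Over the 15 libraries, the closest pairs in log2 CPM were Tek with Flt1 (Pearson r = 0.82) and Tek with Slco1a4 (r = 0.82), and Ly6c1 ran opposite to Kdr (r = -0.61). With each library taken as its deviation from its group mean, Itm2a and Cldn5 were closest (r = 0.70), followed by Emcn and Kdr (r = 0.62). By that measure the pairs named before were weaker, Tek with Flt1 at r = 0.57, Tek with Slco1a4 at 0.29 and Ly6c1 with Kdr at -0.34. Slco1a4 and Mfsd2a then ran most opposite (r = -0.56). Control mouse 5 had the lowest control value for 6 of the 10 genes. The genes outside the list whose log2 CPM was most like the mean standardised level of the 10, over 15 libraries and among 13461 candidates, were Arap3 and Lgmn (r = 0.92 each), Bcan, Lyl1, Stab1, C1qa, Grap and Slco2b1 (r = 0.91 each). C1qa, a complement gene, and Stab1 are genes of microglia or border macrophages. With deviations from group means they were Mospd3 (r = 0.92), S100a16 (0.84), Sod3 (0.83), Tango6 (0.82), Ephx1 (0.81), Wscd1, Mrpl10 and Armc6 (0.79 each). These likenesses describe 15 libraries that share their groups and scaling.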

How the data were processed

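The authors deposited a table of whole numbers per gene symbol, which were taken here as raw counts of reads. STAR, DESeq, DESeq2, MultiQC and FastQC are named, with the build mm10, in the submitters' processing notes. Tool roles, versions, counting tool, annotation and strand setting were not given in the sources used here. Each column name gave its group and mouse, and 0 columns had no sample.

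The test of counts was run in edgeR 4.0.16 under R 4.3.3 (filterByExpr, TMM factors, robust quasi-likelihood F test) on all 15 libraries at once, with Benjamini-Hochberg adjustment and a threshold of 0.05. CPM are TMM-scaled, and SE and 95% intervals come from that fit. Log2 CPM for likeness used a prior count of 2. The fit was tested on simulated data.

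Alternatives were DESeq2 1.42.0, limma 3.58.1 (voom), other scalings, no filter, pairs of groups, a replicate block, no robust dispersion, smooth trends of exon length and GC content per library taken out as offsets (mgcv 1.9.3, GENCODE M21, 97.8% of tested genes), and each library left out. Trends were centred on their median, with deviations limited to 1 log2 unit, a choice made after seeing the data.

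The members, lists and tests were chosen with earlier results of these data known. Named outside the members are up to 3 genes per list with the smallest adjusted p on PLX3397 or after repopulation, against control. Cdh5 and the pan-endothelial and pericyte genes named fall outside that rule and were chosen after their values were seen. Promoter sequences are RefSeq's on GRCm38.p6, and all 10 members matched. No pair of libraries was identical, and libraries of a group differed by 2.53 to 9.95 in chi-square per degree of freedom.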

Additional observations from a re-analysis of the deposited data

Results flagged for a closer look

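Among the 30 sets of 5 libraries examined (10 genes in 3 groups), 1 held a library far from the others. Itm2a in control mouse 5 was at 22.2 CPM, while the other 4 controls lay between 28.6 and 29.0 CPM, a gap of 0.928 of the group's range. About 1 in 20 such sets is picked out by chance. Without this library Itm2a changed by -0.41 on PLX3397 and -0.33 after repopulation against control on the log2 scale (edgeR adjusted p = 0.000182 and 0.000932), in place of -0.35 and -0.26.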

How the results depend on the processing

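Members had 84 to 4004 deposited counts per library, and Emcn, with the lowest, kept its call or lack of one in all 3 comparisons under every alternative and with each library left out. Of 720 recomputed member values, 643 kept their call, 61 lost it, 16 gained it and 0 reversed. Of 4536 values of 63 other named genes, 4227 kept theirs, 254 lost it, 54 gained it and 1 reversed: Bmpr2 on PLX3397, 0.16 (adjusted p = 0.00123), became -0.006 (adjusted p = 0.92) with length and GC trends taken out. That setting gave 728 higher genes on PLX3397 and 1460 after repopulation against control, in place of 1505 and 2548, and 1 higher member in place of 3 in the latter. From PLX3397 to repopulation, 1 member (Ly6c1) was lower in place of 0 with DESeq2, without the count filter, with only the 2 groups compared and without robust dispersion.

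With 1 library left out at a time, 4 to 6 members were lower on PLX3397, 5 to 6 were higher and 0 to 1 lower from PLX3397 to repopulation, and 2 to 3 were higher and 2 to 4 lower after repopulation against control. Without control mouse 5 the PLX3397 comparison had 5 lower members, and without repopulation mouse 4 repopulation had 2 higher and 4 lower against control. Slco1a4 on PLX3397 was also not called with upper quartile factors (adjusted p = 0.0524), voom (0.0666), the 2 groups alone (0.0991) or without robust dispersion (0.0526).

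The labels number the mice 1 to 5 in each group. Deviations of same-numbered mice correlated between -0.185 and 0.144, 1 of 15 pairs was over 0.1, and 1 library matched its own number best, so the numbers were not taken to pair mice. With the replicate block Slco1a4 on PLX3397 (adjusted p = 0.065), Cav1 in both repopulation comparisons (0.0538 and 0.0517) and Kdr against control (0.0507) were not called, and no other member's call changed.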

Other observations

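Cells around the endothelium were measured beside it. The shares of all tested genes given with the vessel lists apply to these counts too. Of 12 pericyte genes, 2 fell and 0 rose on PLX3397, and 3 rose and 0 fell from PLX3397 to repopulation. After removal of length and GC trends 1 fell on PLX3397 and 3 rose. Rgs5, a regulator of G protein signals in pericytes, fell from 107 ± 5.34 CPM in control mice to 90 ± 6.74 with PLX3397 (log2 fold change -0.25, edgeR adjusted p = 0.000338). After repopulation against control, 1 of the 12 pericyte genes rose and 2 fell (1 and 1 after removal of length and GC trends), near the shares of all tested genes. The potassium channel gene Kcnj8 was lower (3.46 ± 0.613 CPM in control and 2.19 ± 0.373 after repopulation, adjusted p = 0.00431) and Notch3 higher (0.24, adjusted p = 0.00718). Vtn was the other lower gene (-0.275, adjusted p = 0.0185), a call lost with the replicate block and after removal of the trends. Of 10 smooth muscle genes, 0 were called on PLX3397, and 1 rose and 1 fell after repopulation against control (1 and 0 after removal of length and GC trends). Of 10 genes of astrocytes and their endfeet, 1 rose and 1 fell on PLX3397, and 2 rose and 2 fell after repopulation against control. After removal of length and GC trends these were 0 higher and 2 lower, then 0 higher and 4 lower. Fibroblast and meningeal genes had 0 calls of 10 on PLX3397 and 1 lower after repopulation (2 after removal of the trends), and none of the 3 tested red cell genes was called in either comparison with control, whose listed set summed to between 1.46 and 14.01 CPM (control), 0.516 and 4.75 CPM (PLX3397) and 0.696 and 10.3 CPM (repopulation).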
